A study of Mus musculus with 2 samples.

Results

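Crabp1 GABA neurons are inhibitory nerve cells of the arcuate region that carry high levels of Crabp1 transcript. They were picked from the deposited table of both libraries by the number of unique molecular identifiers (UMIs, each standing for 1 captured transcript) per 10000 UMIs of the cell (CP10K). A member had Crabp1 of at least 5 CP10K and a sum of the neuronal genes Snap25, Stmn2 and Syt1 of at least 5 CP10K. It also had Agrp, Pomc and Sst each under 10 CP10K, and Trh and Ghrh each under 5 CP10K. The rule found 194 of 7418 cells, or 194 of the 5520 neuronal cells, with 102 in the control library and 92 in the mutant library. These values chose the cells, so Crabp1 and the excluded peptide genes are described here and support nothing.

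The study sorted cells carrying the red reporter tdTomato out of the hypothalamic region that holds the arcuate nucleus and the median eminence, taken from CD-1 mice at postnatal day 10, and profiled single cells with 10x Genomics 3′ v3 chemistry. The control animals were Ins2-Cre;tdTomato+/-, and the mutant animals were Ins2-Cre;tdTomato+/-;Irx3/5+/-, which carry a mutant allele of both Irx3 and Irx5 and are called dHet below. Each genotype gave 1 library from 1 pool, of 5 mice by the sample labels. The reporter marks cells in which the Ins2 promoter has driven Cre at any time, so only neurons with that history, and that survived papain digestion and sorting, could be seen. With 1 library per genotype nothing can be set against the spread between animals, no test was possible, and every interval is a 95% interval for counting error alone.

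Crabp1 encodes a small cytosolic protein that binds retinoic acid. Vgll3 encodes a cofactor of the TEAD transcription factors, Tcf7l2 a transcription factor at the end of the Wnt pathway, and Htr3b the B subunit of the serotonin-gated 5-HT3 channel. Slc32a1 encodes the vesicular transporter that loads GABA, and GABA neurons of the arcuate nucleus take part in the control of feeding, growth and reproduction.

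The members had a median of 22444 UMIs and 5680.5 genes per cell in the control library (2278032 UMIs in all), and the dHet members had medians of 20888 UMIs and 5379 genes (1893951 UMIs in all). Single members ranged from 808 to 43962 UMIs. The 2 libraries shared 4 cell barcodes, none of them between members. The median mitochondrial share was 4.70% in control and 6.20% in dHet members, and 4.54% and 5.89% in other neurons. Astrocyte genes (Aqp4, Slc1a3 and Gja1 together) had a median of 0 CP10K in the members of both libraries and passed 5 CP10K in 1 control member and 0 dHet members. The targeted genes were nearly silent here: Irx3 had 0 and 1 UMI and Irx5 had 1 and 0 UMIs in control and dHet members. In astrocyte-like cells, by contrast, Irx3 had 71 and 24 UMIs and Irx5 had 145 and 89 UMIs, ratios of 0.395 (0.238 to 0.635) and 0.717 (0.545 to 0.940) dHet over control.

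The values went with the name as far as GABA goes, though members and markers were chosen with earlier results of these data known. Slc32a1 had a UMI in 95 of 102 control members (93.1%) and in 90 of 92 dHet members (97.8%), and Gad1, the main GABA-synthesising enzyme, in 98.0% and 96.7%. In astrocyte-like cells, where any such UMI can come from free RNA, Slc32a1 was seen in 2.0% and 1.6% of cells at median depths of 7736 and 7143 UMIs. With every cell thinned to 8000 UMIs and the 7 control and 6 dHet members below that depth dropped, Slc32a1 was seen in 87.4% and 89.5% of members, 55.2% and 56.4% of other neurons and 0.6% and 2.7% of astrocyte-like cells. The vesicular glutamate transporter Slc17a6 stood at 2.19 and 2.11 CPM (a gene’s UMIs as counts per 10000 UMIs of the summed cells, times 100) in members against 209 and 218 CPM in other neurons. Gad2, the other GABA-synthesising enzyme, was lower than in other neurons, at 130 and 176 CPM against 277 and 254 CPM. No UMI of Htr3a, the A subunit with which Htr3b is known to assemble, was found in 194 members, which allows a share of up to 1.55% of cells with a UMI. Vgll3 and Htr3b did not mark all members: they were seen in 62.7% and 36.3% of control members and in 54.3% and 29.3% of dHet members.

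Crabp1 itself ran without a gap across the threshold. In control members it went from 5.01 through a median of 11.1 to 31.7 CP10K, and in dHet members from 5.05 through 13.9 to 34.9 CP10K. The cells just outside were at 4.93 and 4.98 CP10K. Of neurons, 21 control and 32 dHet cells lay between 3 and 5 CP10K. Vgll3 stood at 118 and 85.5 CPM in them, against 118 and 88.5 CPM in members under 10 CP10K and 3.82 and 2.82 CPM in neurons with no Crabp1 UMI. Tcf7l2 in the same 3 groups was at 111 and 129, 141 and 164, and 36.3 and 29.2 CPM. For Vgll3 and Tcf7l2 the cells just below 5 CP10K were thus nearer to the members than to neurons without Crabp1. Slc17a6, Gad2 and Adamts5 gave no difference that held in both libraries. In dHet cells Slc17a6 was at 32.3 CPM (19.7 to 49.8) between 3 and 5 CP10K. It was at 0 CPM (0 to 7.77) in dHet members under 10 CP10K. In control cells of the same 2 groups it was at 0 and 3.97 CPM. Gad2 was at 209 CPM (168 to 258) and 100.3 CPM (81.7 to 122) in those control cells, but at 163 and 169 CPM in dHet cells. Adamts5 was at 16.8 and 37.8 CPM in control cells, and the other way, at 38.7 and 23.2 CPM, in dHet cells. The prepronociceptin gene Pnoc was higher where Crabp1 was higher: 140 and 129 CPM in members under 10 CP10K, and 224 and 248 CPM in those of 20 CP10K or more.

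**Figure D1:**
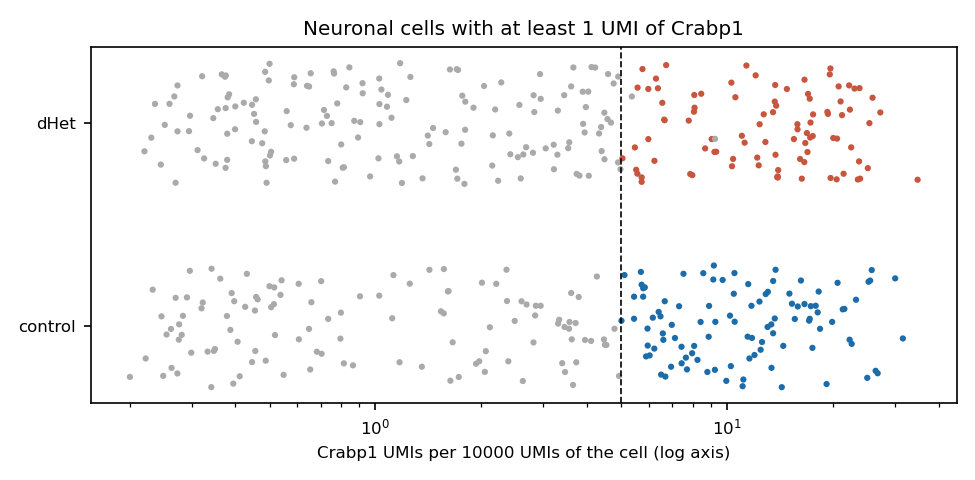
Each point is 1 neuronal cell with at least 1 Crabp1 UMI, placed by its Crabp1 level in UMIs per 10000 (log axis) and by library (vertical scatter within a library has no meaning). Coloured points are the 102 control and 92 dHet members, grey points are not members, and the dashed line marks 5 CP10K, where the values show no gap.

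The start regions of the 3 defining genes with the highest ratios to other neurons are shown because their transcripts mark these cells. Each is the window of 250 bases before to 50 bases after the start, from the RefSeq promoter table of build GRCm38.p6, written 5′ to 3′ on the gene's strand. Crabp1 (window chr9:54764498-54764797, plus strand), Vgll3 (chr16:65814939-65815238, plus strand) and Htr3b (chr9:48964941-48965240, minus strand) are all protein-coding genes.
Crabp1: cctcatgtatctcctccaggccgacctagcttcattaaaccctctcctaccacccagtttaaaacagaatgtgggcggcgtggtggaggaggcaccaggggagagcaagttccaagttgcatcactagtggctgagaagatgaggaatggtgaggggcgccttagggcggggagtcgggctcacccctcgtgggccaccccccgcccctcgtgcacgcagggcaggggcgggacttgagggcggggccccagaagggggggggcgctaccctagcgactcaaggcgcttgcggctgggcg
Vgll3: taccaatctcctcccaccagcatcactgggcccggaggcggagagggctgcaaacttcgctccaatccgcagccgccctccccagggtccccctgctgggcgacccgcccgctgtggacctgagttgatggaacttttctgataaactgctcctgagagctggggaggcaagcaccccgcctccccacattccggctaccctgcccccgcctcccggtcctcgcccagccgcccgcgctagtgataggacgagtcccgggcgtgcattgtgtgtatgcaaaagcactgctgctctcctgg
Htr3b: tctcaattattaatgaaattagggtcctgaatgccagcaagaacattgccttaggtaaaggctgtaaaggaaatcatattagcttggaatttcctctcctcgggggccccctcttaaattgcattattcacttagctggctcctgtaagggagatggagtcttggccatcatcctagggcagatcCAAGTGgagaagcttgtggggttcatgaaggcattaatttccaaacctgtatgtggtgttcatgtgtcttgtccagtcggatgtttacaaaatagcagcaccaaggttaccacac
Capitals mark the only match to 3 motifs that were searched on both strands: CTTTGA (the Tcf/Lef core, found in 16.0% of 32851 promoter windows of this length), AGGTCA (a nuclear receptor half-site, 16.3%) and CAAGTG (a core bound by NK-type homeodomain proteins, 13.6%). Htr3b held 1 CAAGTG, starting at base 186 of its window, and no other match was in these letters. The Crabp1 and Vgll3 windows were 65% and 65.3% G or C and the Htr3b window 44.3%. Such matches describe the letters and show no binding.

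The members differed from other neurons in a short list of genes that both libraries gave alike. Of 9044 genes with at least 10 CPM in members or in other neurons of both libraries, 38 (0.42%) were at least 2 times higher in members in both libraries and 156 (1.72%) at least 2 times lower. Without the 9 genes that the rule used, 37 and 151 of 9035 genes were past the fold. These counts use log2 ratios with 5 CPM added to each side, which shrinks the ratio of weak genes. With 20 CPM added they were 21 and 67. They were 64 and 134 when each peptide type of neuron, and the neurons picked by no peptide gene as a further type, had equal weight.

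Vgll3 stood at 122 CPM in control and 127 CPM in dHet members, against 5.50 and 4.77 CPM in other neurons. No neurons picked by a peptide gene passed 2.57 CPM of it. Htr3b was at 38.6 and 34.8 CPM against 0.869 and 1.30 CPM, and the members, 4.13% and 3.01% of neurons, held 66.2% and 44.9% of all its UMIs in neurons. Tcf7l2 was at 168 and 146 CPM against 37.7 and 32.4 CPM in other neurons. It was not particular to nerve cells: astrocyte-like cells had 125 and 105 CPM. Of the 4 other names given with Crabp1, these 3 were at least 2 times higher than in other neurons in both libraries. Slc32a1 was at 289 and 300 CPM against 208 and 202 CPM. The names were chosen with earlier results of these data known, so their levels describe the cells and support nothing.

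Among transcription factor genes, the paired homeobox genes Hmx2 and Hmx3, which act in the developing hypothalamus and inner ear, led. Hmx2 was at 68.9 and 64.9 CPM against 17.4 and 15.8 CPM, and Hmx3 at 66.7 and 81.8 CPM against 21.8 and 19.2 CPM. Both had a UMI in 53 of 102 control and 48 of 92 dHet members. The T-box gene Tbx3, needed for arcuate neuron identity, was at 180 and 171 CPM against 65.2 and 71.1 CPM, below the 258 and 249 CPM of Pomc neurons. The zinc-finger factor gene Klf5 (74.2 and 80.3 against 20.1 and 21.0 CPM) and the homeobox gene Gsx1 (29.0 and 23.8 against 8.05 and 7.34 CPM) also belonged to the 25 highest. Ghrh neurons held more Gsx1 than the members, at 115 and 104 CPM. With each type of neuron weighted equally, the mean log2 ratio of both libraries was 0.23 for Gsx1 and 0.95 for Tbx3, both under the 2-fold line, and with 20 CPM added it was 0.74 for Gsx1. Enough signal, 10 CPM in members or in other neurons, was found for 32 hypothalamic and forebrain transcription factors. Of these, 4 were at least 2 times higher in both libraries and 16 at least 2 times lower, against 0.42% and 1.72% of all genes. A factor could enter by being high in other neurons alone, so the number of lower factors follows in part from that minimum and supports nothing. Nkx2-1, which patterns the ventral hypothalamus, completed the 4, with Hmx2, Hmx3 and Tbx3, at 134 and 126 CPM against 61.1 and 51.6 CPM. Six6, a homeobox gene of eye and hypothalamus, went the other way, at 25.02 and 30.1 CPM against 139 and 134 CPM, and Otp, a homeobox gene of neuroendocrine neurons, was at 0.878 and 3.17 CPM against 127 and 138 CPM.

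Other leading genes had roles at the cell surface and in signalling. Ndst4, a heparan sulfate modifying enzyme, was at 67.2 and 58.1 CPM against 11.3 and 9.42 CPM. The secreted protein gene Cthrc1 was at 42.6 and 41.7 CPM against 6.72 and 6.12 CPM, and the matrix protease gene Adamts5 at 43.9 and 44.9 CPM against 7.65 and 7.18 CPM. None of 15 GABA receptor subunits with enough signal passed the fold in either direction, although Gabra5, a subunit of the GABA-A receptor, stood at 204 and 194 CPM against 103 and 124 CPM. Cox6a2, a tissue-restricted subunit of cytochrome oxidase, was at 251.1 and 179.5 CPM against 55.4 and 46.0 CPM. None of 26 other nuclear genes of the respiratory chain passed the fold.

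Most neuropeptide genes counted here were lower than in other neurons. Of 21 with enough signal that the rule did not use, 14 were at least 2 times lower and 1 was higher. Over all genes counted, 1.72% were lower and 0.42% higher. Enough signal meant 10 CPM in members or in other neurons, so a gene could enter by being high in other neurons alone. The number of lower genes thus follows in part from that minimum and supports nothing. The 5 that the rule used, Agrp, Pomc, Sst, Trh and Ghrh, are low by choice and are left out of this count. The 1 was Pnoc, at 185 and 191 CPM against 77.2 and 76.4 CPM, with a UMI in 88.2% and 92.4% of members. Sst neurons had more of it, at 196 and 246 CPM. Tac2, the neurokinin B gene, was at 2.63 and 0.528 CPM against 280 and 193 CPM, and the galanin gene Gal at 9.66 and 3.70 CPM against 154 and 194 CPM. Npy was at 13.2 and 34.8 CPM. It had a UMI in 12.6% and 20.9% of thinned members and in 21.4% and 35.5% of thinned astrocyte-like cells, so it is read as background. Pcsk2, which cuts peptide precursors, was at 28.5 and 24.3 CPM against 145 and 125 CPM. The calcium channel subunit and gabapentin target Cacna2d1 was at 24.6 and 29.6 CPM against 236 and 272 CPM. The leptin receptor Lepr had a UMI in 1.0% and 1.1% of members.

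**Figure D2:**
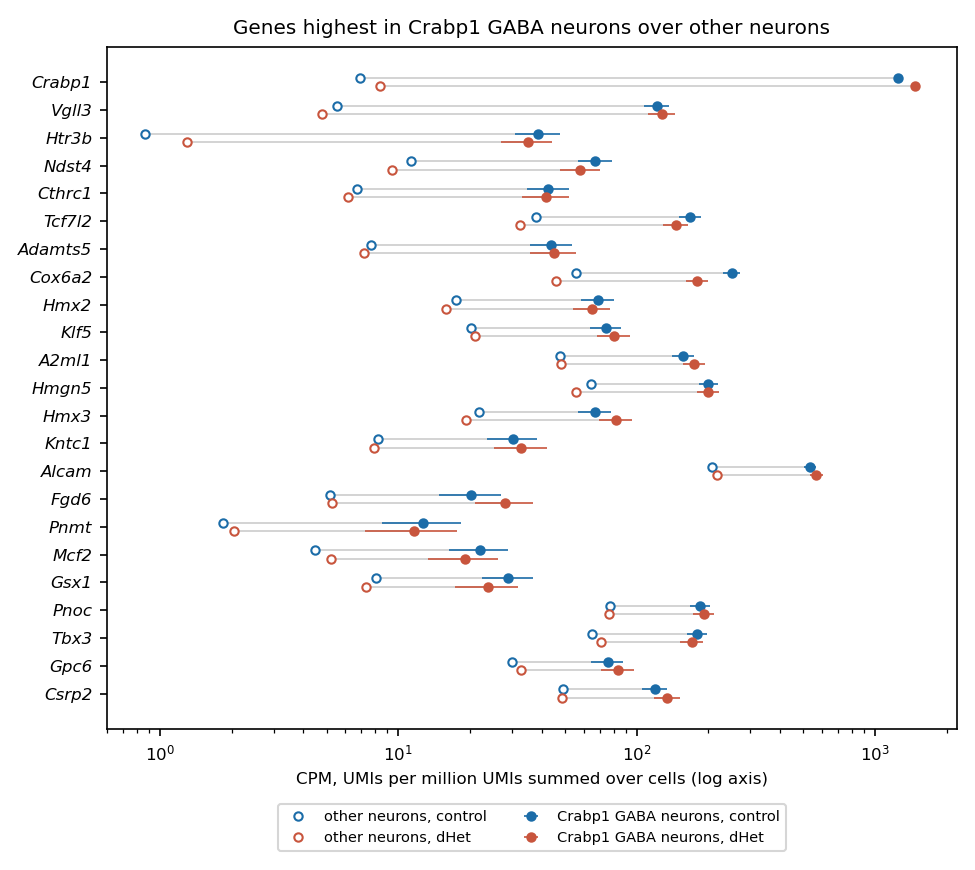
Genes from among the 25 with the highest level in Crabp1 GABA neurons over other neurons, in CPM on a log axis. Filled points with 95% Poisson intervals are members, open points are other neurons, and blue and red are the control and dHet libraries. Both libraries give higher levels in members from Crabp1 (1251 and 1466 against 6.91 and 8.38 CPM) down to Csrp2. Levels in members were not always alike: Crabp1 was higher and Cox6a2 lower in dHet than in control members.

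Within the members, 2 sets of genes tended to lie in different cells. Cells with Vgll3 had more Htr3b, Sox2, Rxrg, Ndst4 and Gsx1, and cells without it had more Esr1, Tmem35a, Npy1r, Ecel1 and Chl1. Both had Crabp1, which chose them, and Tcf7l2 and Slc32a1. This division was noticed in these values, so it is a description and was not tested. Members were divided by whether they had a UMI of Vgll3. That gave 64 control and 50 dHet members with it, at median depths of 22621.5 and 22338.5 UMIs. The 38 control and 42 dHet members without it had median depths of 21464 and 18527 UMIs, and the part of depth in the division was not tested beyond the thinned values below.

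Genes were ranked by their control ratio alone and then read in the dHet library. The dHet cells did count toward the 60 UMI minimum and the removal of likely free RNA. The division itself was noticed in these values, so likeness between the libraries is described and is no independent support. Of 7755 genes with at least 60 UMIs in members, the 20 with the highest control ratio of cells with over cells without Vgll3 were all at least 2 times higher in the dHet library too, with a median log2 ratio of 2.39. The share of all genes past that fold there was 2.55%. Of the 20 lowest, all were lower in the dHet library and 17 at least 2 times so (median log2 ratio -1.92, share of all genes 1.52%). The 3 that missed the fold were Nrep, Vim and Fgf17. In both libraries at once, 105 genes (1.35%) were at least 2 times higher with Vgll3 and 68 (0.877%) at least 2 times lower. Counts of that kind depend on depth, since thinning to 8000 UMIs left 27 and 26 genes past the fold, and there 19 of the 20 higher genes were still higher and all 20 lower genes still lower in both libraries.

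In cells with Vgll3, the neural transcription factor gene Sox2 was at 112 and 75.7 CPM, against 1 UMI in each library in cells without it (1.31 and 1.30 CPM). Htr3b was at 53.4 and 58.8 CPM against 9.20 and 0 CPM, and 34 of 37 control and 27 of 27 dHet members with Htr3b also had Vgll3. The nuclear receptor genes Rxrg, a retinoid X receptor, and Thrb, a thyroid hormone receptor, were both on this side. Rxrg was at 85.7 and 89.98 CPM against 6.57 and 6.48 CPM, 13.1 times (5.45 to 40.9) and 13.9 times (5.76 to 43.7) higher. Thrb was at 41.5 and 43.7 CPM against 2.63 and 1.30 CPM. Gsx1 was at 42.9 and 39.2 CPM against 1.31 and 1.30 CPM, and Ndst4 at 98.2 and 96.2 CPM against 5.26 and 2.59 CPM. Fos and Egr1, which report recent activity or stress, were on the same side: Fos was at 183 and 65.0 CPM against 18.4 and 9.07 CPM. A UMI of Fos was seen in 49 of 102 control members but in only 19 of 92 dHet members. The dHet level leaned on few cells, since single dHet cells with Vgll3 held 25 and 14 Fos UMIs.

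In cells without Vgll3, the oestrogen receptor gene Esr1 was at 70.9 and 66.1 CPM, against 0 and 3.56 CPM with it (0 and 4 UMIs). Tmem35a, an assembly factor of nicotinic receptors, was at 210 and 191 CPM against 20.4 and 24.1 CPM. The neuropeptide Y receptor gene Npy1r was at 106 and 94.6 CPM against 17.1 and 17.8 CPM. The prolactin receptor gene Prlr was at 93.3 and 104 CPM against 30.3 and 33.9 CPM, with a UMI in 73.7% and 76.2% of cells against 45.3% and 42%. Socs2, which dampens growth hormone signalling, was at 82.8 and 71.3 CPM against 13.2 and 9.80 CPM. The adhesion gene Chl1 (345 and 297 against 44.2 and 65.0 CPM), the peptidase gene Ecel1 (129 and 154 against 20.4 and 19.6 CPM) and the nuclear receptor gene Nr5a2 (38.1 and 29.8 against 2.64 and 4.45 CPM) were on this side as well.

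Pairs of genes from opposite sides differed in how often 1 cell held both. All these genes were picked from the division by Vgll3, so the pairs describe it and do not support it. Esr1 and Sox2 shared 0 of 102 control and 2 of 92 dHet members, while 23 and 31 had Esr1 alone and 46 and 29 had Sox2 alone. Esr1 and Rxrg shared 2 and 5 members, with 21 and 28 for Esr1 alone and 42 and 37 for Rxrg alone. Other pairs overlapped more: Npy1r and Rxrg shared 13 and 10 members, Ecel1 and Sox2 shared 8 and 9, and Sox2 and Tmem35a shared 12 and 12, with 34 and 19 for Sox2 alone. Between cells with and without Vgll3, Crabp1 was at 1229 and 1449 CPM with Vgll3 and 1295 and 1489 CPM without, Tcf7l2 at 165 and 145 against 173 and 146 CPM, and Slc32a1 at 301 and 313 against 265 and 281 CPM. Hmx2, Hmx3, Cox6a2 and Klf5 differed by less than 2 times between the cells with and without Vgll3 in both libraries.

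Genes of both sides were also found in neurons picked by a peptide gene. Ghrh neurons had Esr1 at 79.8 and 77.8 CPM and Ecel1 at 403 and 387 CPM, but also Gsx1 at 115 and 104 CPM, which belongs to the Vgll3 side here. Trh neurons had Rxrg at 213 and 192 CPM and Sox2 at 12.5 and 13.1 CPM. Pomc neurons had Npy1r at 54.3 and 75.2 CPM and Sox2 at 91.4 and 89.2 CPM.

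**Figure D3:**
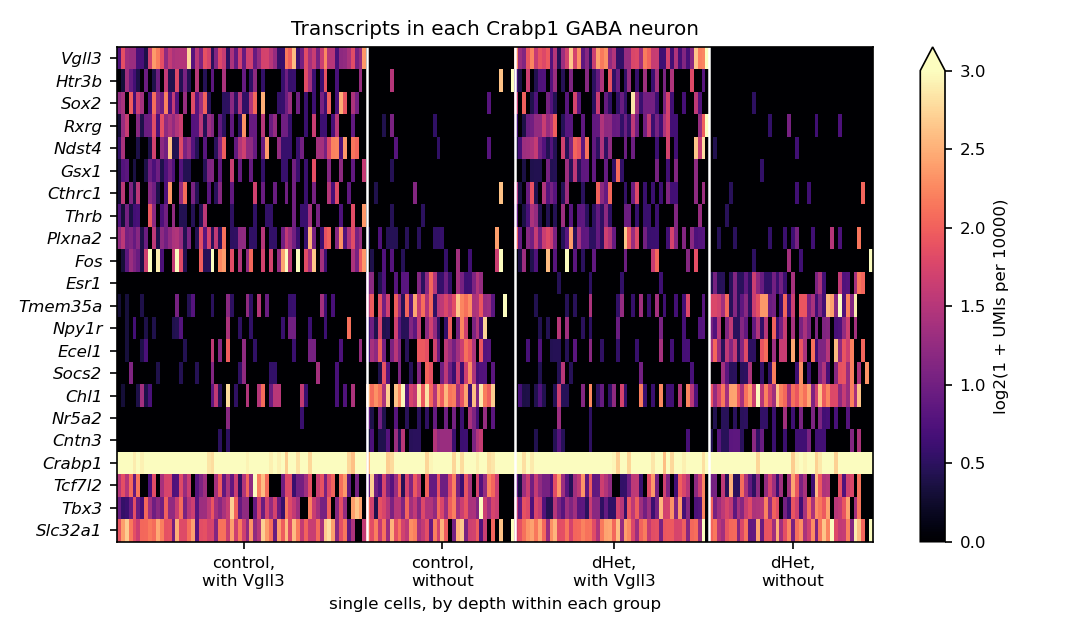
Each column is 1 of the 194 members and each row a gene, coloured by log2(1 + UMIs per 10000), with colours at 3 and above drawn alike. White lines separate control and dHet members with and without a UMI of Vgll3 (64, 38, 50 and 42 cells), sorted by depth. The genes shown were picked with their values known. UMIs of the upper rows lie mostly in the blocks with Vgll3, and those of the rows from Esr1 to Cntn3 mostly in the blocks without. Many cells of those blocks have no UMI of a given gene, among them Htr3b, Fos, Nr5a2 and Cntn3. Crabp1, Tcf7l2, Tbx3 and Slc32a1 are seen across all 4 blocks.

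**Figure D4:**
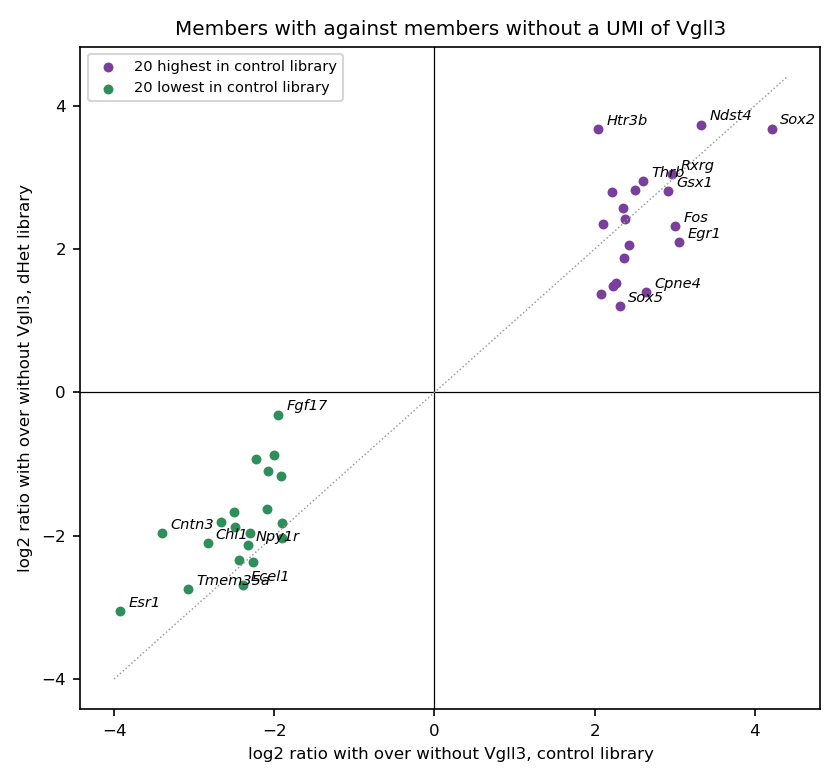
Log2 ratios (5 CPM added) of members with over members without a UMI of Vgll3, control library on the horizontal and dHet library on the vertical axis, for the 20 highest and 20 lowest genes of the control library. All 40 points lie in the quadrants of equal sign, and the dotted line marks equal values.

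The share of Crabp1 GABA neurons was smaller in the dHet library. They made up 4.13% (Clopper-Pearson interval 3.38 to 5.00) of control neurons and 3.01% (2.44 to 3.68) of dHet neurons, a ratio of 0.729 (0.544 to 0.976). Of all cells they were 2.93% and 2.34%, and that ratio of 0.797 (0.594 to 1.07) took in 1. Neurons picked by Agrp and by Pomc made up larger shares of the dHet library (ratios of 1.59 and 1.66), and all shares are parts of 1 total per library. Members with Vgll3 were 2.59% of control and 1.64% of dHet neurons, a ratio of 0.631 (0.427 to 0.928), and those without were 1.54% and 1.38%, a ratio of 0.893 (0.562 to 1.42). Their mix was 62.7% (52.6 to 72.1) with Vgll3 in the control and 54.3% (43.6 to 64.8) in the dHet library, intervals that overlap. The share ratio leaned on the Crabp1 threshold: at a minimum of 10 CP10K it was 0.907, with 57 and 64 members. By Crabp1 level, 45 control and 28 dHet members were under 10 CP10K, and 43 and 44 were from 10 to 20 CP10K. At 20 CP10K or more there were 14 and 20, of 2467 control and 3053 dHet neurons, so the smaller dHet share lay mainly in members under 10 CP10K.

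Between genotypes, 3 of 8 immediate early genes, Fos among them, were at least 1.5 times lower in dHet members. A few other genes were lower or higher, and Vgll3, Htr3b, Tcf7l2 and Slc32a1 did not pass that fold. Of 6066 genes with at least 100 UMIs in members and a UMI in at least 10% of them in 1 library, 22 (0.363%) were at least 1.5 times higher in dHet members and 98 (1.62%) at least 1.5 times lower, 120 genes (1.98%) in all. Over the same genes, the other neurons gave 4 (0.0659%) and 13 (0.214%), 17 genes (0.28%) in all, from 51789449 and 62414761 UMIs, a far deeper count, so the shares of the 2 groups of cells cannot be set against each other. The balance of higher and lower genes was not firm either. It was 35 higher and 58 lower with the median log2 ratio of -0.05 scaled to 0, and 46 higher and 29 lower when the 5 members with most UMIs of each gene were left out. Those 5 were picked over both libraries together, so a gene tends to lose more cells from the library where it is higher. That setting alone thus cannot show that the balance turns.

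Fos, the immediate early transcription factor, had 292 UMIs (128 CPM) in control and 80 UMIs (42.2 CPM) in dHet members, a ratio of 0.330 (0.254 to 0.423), and 33.3% of its UMIs came from 5 cells. Other neurons gave 0.335 (0.323 to 0.347) and astrocyte-like cells 0.395 (0.373 to 0.419), so Fos was lower by a like factor in all 3 groups of cells. Junb, its partner in AP-1, was at 53.6 and 15.8 CPM, a ratio of 0.296 (0.191 to 0.444). Its log2 ratio of -1.49 was -0.90 without the 5 members with most of its UMIs and -0.41 with all cells weighted equally. The size of the ratio thus depended on single cells, and the highest dHet member stood at 23.4 CP10K. Fewer dHet members had Junb at all: it had a UMI in 36.3% of control and 17.4% of dHet members. After thinning these shares were 17.9% and 5.8%. Of 8 immediate early genes with enough UMIs, 3 were at least 1.5 times lower and none was higher. All 8 had a log2 ratio below 0, with a median of -0.52 in members and -0.66 in other neurons, while 3614 of the 6066 genes lay below 0. The third was the growth arrest gene Gadd45g, at 50.04 and 25.3 CPM, although its log2 ratio among members without Vgll3 was 0.052. Members with Vgll3 carried most Fos in both libraries and were fewer in the dHet library. Among those with Vgll3 the Fos ratio was 0.355 (0.270 to 0.461), and among those without it was 0.493 (0.169 to 1.31).

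Some lower genes were not shared with other neurons at that size. Pde10a, a phosphodiesterase that degrades cyclic nucleotides, was at 91.3 CPM in control and 38.0 CPM in dHet members (208 and 72 UMIs), a ratio of 0.416 (0.314 to 0.547). In other neurons its ratio was 0.805 (0.773 to 0.839), in Agrp neurons 1.18 (1.01 to 1.39). Nr3c1, the glucocorticoid receptor gene, had 121 UMIs in control and 50 in dHet members, with a ratio of 0.497 (0.350 to 0.696) for 53.1 and 26.4 CPM, against 1.04 (0.996 to 1.08) in other neurons. Both ratios stayed below 1 among members with Vgll3 (0.403 for Pde10a and 0.465 for Nr3c1) and among those without (0.658, interval 0.341 to 1.24, and 0.605, interval 0.323 to 1.10). These genes were picked from 6066 for their low ratios, and whether their ratios in members and in other neurons differ beyond the spread between animals was not tested.

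Pdia4, a folding enzyme of the endoplasmic reticulum, was at 34.2 and 15.8 CPM, a ratio of 0.463 (0.293 to 0.713) against 0.815 in other neurons. Sdf2l1, another protein of that compartment, had a ratio of 0.494 (0.312 to 0.766) against 0.829. Hspa5, its main chaperone, was at 622 and 547 CPM. Of 11 heat shock genes with enough UMIs, none passed the fold, 10 were below 0 and the median log2 ratio was -0.15, against -0.03 in other neurons.

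Higher genes were fewer. Gstp1, a glutathione transferase, had 40 UMIs in control and 84 in dHet members. Its levels of 17.6 and 44.4 CPM stood in a ratio of 2.53 (1.71 to 3.78), with 2.50 in other neurons and 2.08 in astrocyte-like cells. It was thus higher by a like factor in all 3 groups of cells. The cadherin gene Cdh22 had 56 UMIs in control and 97 in dHet members. Its levels of 24.6 and 51.2 CPM stood in a ratio of 2.08 (1.48 to 2.95), against 1.03 in other neurons, 1.39 in Agrp neurons and 1.33 in Sst neurons. Its ratio was 2.06 among members with Vgll3 and 2.22 among those without. Creb1, a transcription factor driven by cyclic AMP, had a ratio of 1.68 (1.18 to 2.43). Among members with Vgll3 it was 2.36 (1.46 to 3.91), and among those without 1.02 (0.581 to 1.80).

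**Figure D5:**
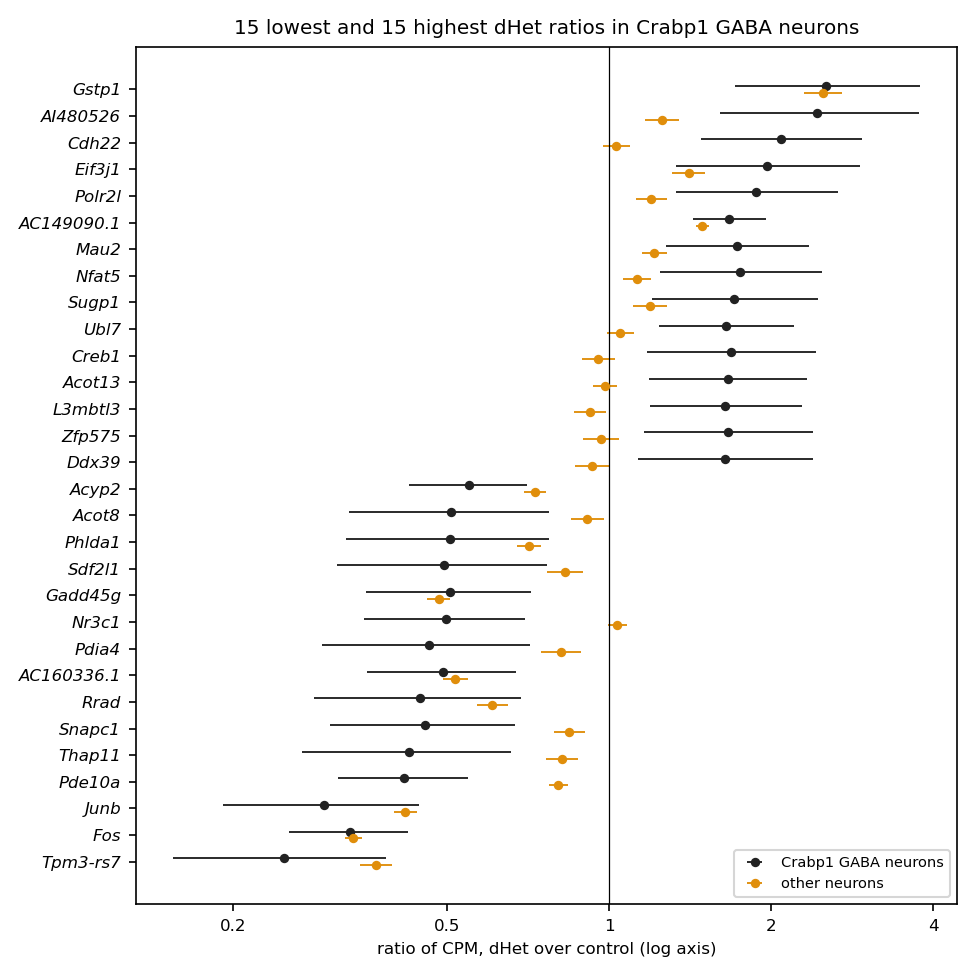
Ratios of CPM, dHet over control (log axis), for the 15 genes with the lowest and the 15 with the highest log2 ratio in Crabp1 GABA neurons. Black points are members and orange points other neurons, with 95% intervals for counting error; Fos and Gstp1 had nearly the same ratio in both, and Pde10a, Nr3c1 and Cdh22 lay farther from 1 in members.

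Of 7 genes of the neuropeptide list with enough UMIs, 2 were at least 1.5 times lower, against 1.62% of all genes counted, and none was higher. These were Vgf, a granule protein induced by activity, at 282 and 184 CPM (log2 ratio -0.60, 0.07 in other neurons), and Cartpt, the CART peptide gene, at 34.2 and 19.0 CPM (log2 ratio -0.71). On the separate list of peptide processing and granule genes, which also holds Vgf, 1 of 12 was at least 1.5 times lower and none was higher. Pnoc did not pass the fold over all members, at 185 and 191 CPM, but its ratio was 1.30 (1.09 to 1.54) among members with Vgll3 and 0.658 (0.503 to 0.858) among those without. Of 10 peptide and hormone receptor genes, Nr3c1 was the 1 that passed the fold. Cdh10 was lower among 22 adhesion genes, at 68.9 and 43.8 CPM (log2 ratio -0.60).

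The genes that define these cells did not pass the fold in either direction: the ratio was 1.05 (0.877 to 1.25) for Vgll3, 0.902 (0.646 to 1.26) for Htr3b, 0.869 (0.742 to 1.02) for Tcf7l2 and 1.04 (0.925 to 1.16) for Slc32a1. Gad2 had a ratio of 1.35 (1.15 to 1.59), under the fold. None of 15 hypothalamic and forebrain transcription factors, 13 GABA receptor subunits, 16 glutamate receptor subunits, 12 potassium channels, 16 sodium, calcium and HCN channels, 26 nuclear respiratory chain genes, 16 cholesterol synthesis genes or 9 insulin, leptin and PI3-kinase genes passed it. Sox2, kept on the list of tanycyte genes, was lower, at 75.1 and 45.4 CPM, and among members with Vgll3 its ratio was 0.676 (0.515 to 0.882). Apoe, on the astrocyte list, was at 68.0 and 43.3 CPM. Beside it, the astrocyte genes Aqp4, Slc1a3 and Gja1 had a UMI in 12 control and 5 dHet members, and their part in the result was not tested.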

How the data were processed

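Cells sorted for tdTomato were sequenced in 1 control and 1 dHet library. The deposited values are raw UMI counts per gene and cell, made with Cell Ranger 3.0.2 per the file headers and mapped to mm10 per the submitters' processing notes. The main table holds the authors' selection of 7418 cells; the deposited matrix of each library was used as an alternative, with at least 500 genes and at most 20% mitochondrial UMIs per cell. Members and gene lists were chosen with earlier results of these data known.

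UMIs were summed over cells and given as CPM. Counts of genes used log2 ratios with 5 CPM added. Ratios between genotypes were counted for genes with at least 100 UMIs and a UMI in 10% of members of 1 library, at 1.5 times, and ratios over other neurons at 2 times; the 10 CPM minimum there was set after values were seen, as were the division by Vgll3, its 60 UMI minimum and its 20 highest and 20 lowest genes. Intervals are 95% and exact: Clopper-Pearson for shares, Poisson for levels, conditional binomial for ratios. They cover counting error only. Named genes were the targeted genes, the markers, up to 6 per list by size of ratio, the 15 highest and 15 lowest genotype ratios, and the 25 highest and 10 lowest over other neurons; mitochondrial, ribosomal, haemoglobin, sex-linked and unnamed genes and likely free RNA were left out of the rankings. Some genes that the rule names are not reported here. Other genes that are named, among them those described with the division by Vgll3, were chosen after their values were seen. Astrocyte-like cells had Aqp4, Slc1a3 and Gja1 summing to at least 5 CP10K without the neuronal sum. A class of Tbx19 neurons found 0 cells. Doublets were kept: Scrublet, in scanpy 1.11.5, marked 27 control (0.776%) and 34 dHet cells (0.863%), 1 member in each, and leaving them out was an alternative. Python 3.11.15, numpy 2.4.6, scipy 1.17.1, pandas 2.3.3 and matplotlib 3.10.9 were used. The counting was tested on simulated library totals without variation between cells, so that test does not cover UMIs that cluster in a few cells.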

Additional observations from a re-analysis of the deposited data

How the results depend on the processing

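No paired analysis was possible because each genotype had 1 library, and for the same reason no replicate could be left out. The share ratio stayed below 1 under every alternative run, from 0.603 to 0.907 of neurons and from 0.659 to 0.992 of all cells. None of these set the Crabp1 minimum above 10 CP10K. Counts of genes higher and lower in dHet members (22 and 98) moved with the added level, to 149 lower with 1 CPM and to 8 and 20 with 20 CPM. They were 52 and 179 with cells weighted equally, 12 and 61 after thinning, 35 and 58 with the median scaled to 0, and 231 and 443 without a filter. Leaving out the 5 members with most UMIs of each gene, picked over both libraries together, gave 46 and 29. Over other neurons (38 and 156), 20 CPM gave 21 and 67, and equal weight for cell types gave 64 higher. For the division by Vgll3 (105 and 68), thinning gave 27 and 26 and the middle of the depth range 57 and 35. Of the genes named for their genotype ratio, AC160336.1 and Gadd45g changed sign among members without Vgll3, to log2 ratios of 0.029 and 0.052. All alternatives that use Vgll3 or Htr3b were added after seeing the data. The causes were not tested. Depth limits genes under 100 UMIs in members, which were not compared between genotypes.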
